A study of Mus musculus with 11 samples.

Results

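The Hox genes encode homeodomain transcription factors that lie in 4 chromosomal clusters. The members described here are all protein-coding mouse genes whose symbol is Hox, a cluster letter from a to d and a paralogue number. There were 39 such genes among the 55536 genes counted. Over all libraries 32 of them had at least 10 counts and 7 had fewer. The 7 were Hoxa11, Hoxa13, Hoxb13, Hoxc10, Hoxc11, Hoxd12 and Hoxd13.

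RNA was sequenced in bulk from dorsal skin epidermis of CD4Cre R26-tdT mice, all male and on C57Bl6/N. In these mice Cre is driven by CD4, and cells in which Cre was active, with their descendants, carry the red reporter tdT. Every library came from a thermolysin preparation and from the same CD49f+CD34+ sort gate, split by the surface protein Sca-1 and by tdT. The groups were Sca-1+ tdT+ (3 libraries), Sca-1+ tdT- (2 libraries), Sca-1neg tdT+ (3 libraries) and Sca-1neg tdT- (3 libraries). All groups share the Cre and reporter alleles, and no group without Cre was analysed here. Each library pooled 2 mice, of 29 weeks for replicate 1 and of 32 weeks for the others. The labels do not say whether groups of one number share mice, and p-values measure the spread between these libraries.

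Along the body axis, Hox genes of low paralogue number act towards the head and those of high number towards the tail, and genes of the same number in different clusters descend from a common ancestor. Adult skin cells keep a Hox profile that reflects their position on the body. Hoxc13 stands apart, since it is known for its part in hair and nail differentiation in mouse and human.

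Total counts ran from 17409131 to 46542177 per library. The sequence read as the tdT tracer stood at 133 to 307 CPM, counts scaled to library size, in 5 of the 6 libraries labelled tdT+ and at 2.54 to 4.89 CPM in the 5 tdT- libraries. The library labelled replicate 2 of Sca-1neg tdT+ held 2.05 CPM, under every tdT- library, and is named so below. Liver transcripts, summed over 8 markers, reached 8534 to 17809 CPM in 3 libraries (Sca-1neg tdT+ replicate 1, the library labelled replicate 2 of Sca-1neg tdT+ and Sca-1neg tdT- replicate 2) and at most 67.7 CPM in the other 8. The 12 endothelial markers summed to 59.2 to 153 CPM in Sca-1+ tdT+, 4263 and 4524 in Sca-1+ tdT-, 11.5 to 980 CPM in Sca-1neg tdT+ (980 in the library labelled replicate 2) and 42.9 to 143 CPM in Sca-1neg tdT- libraries. All 4 keratinocyte markers together (Krt5, Krt14, Trp63 and Itga6) summed to at least 12415 CPM in every library. 

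The level of a Hox gene varied with its paralogue number. Mean CPM over all libraries, divided by the exon length in kilobases (kb), is used wherever genes are compared with each other. The length includes exon bases shared with other genes. Levels are thus less certain for genes such as Hoxd3, Hoxb3 and Hoxd4, with 37.2%, 47.1% and 47.7% of exon bases free of other genes. The 15 genes with paralogue numbers 4 to 8 all had at least 1 CPM per kb, with a median of 8.63, and took 78.7% of the summed CPM per kb of the family. The 4 genes of number 9 took 10.4%, of which Hoxb9 at 17.2 CPM per kb was the highest. The 8 genes of numbers 1 to 3 took 6.73%, with a highest level of 4.39 CPM per kb for Hoxa2. The 12 genes of numbers 10 to 13 took 4.18%, and of these Hoxc13, at 7.29 CPM per kb, was the only one above 1. The median of these 12 was 0.0113 CPM per kb.

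The levels fell into 8 members at 10 or more CPM per kb, 16 between 1 and 10, and 15 under 1. The 8 were Hoxa7 (22.8), Hoxa5 (20.7), Hoxb6 (19.9), Hoxc8 (19.4), Hoxb9 (17.2), Hoxb8 (15.7), Hoxb7 (13.1) and Hoxc6 (10.04 CPM per kb). No HoxD gene was among them: Hoxd8 had 8.63, Hoxd9 2.29, Hoxd4 1.22 and Hoxd10 0.795 CPM per kb. Hoxa13 had no count in any library, which allows up to 0.00951 CPM over all libraries together (3 counts, counting error only). Of the other members under 10 counts, all 9 counts of Hoxa11 and all 6 of Hoxd12 came from Sca-1neg tdT- replicate 2, which also held liver transcripts. Hoxc10 had 8 counts, Hoxb13 and Hoxc11 had 4 each, and Hoxd13 had 2.

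**Figure D1:**
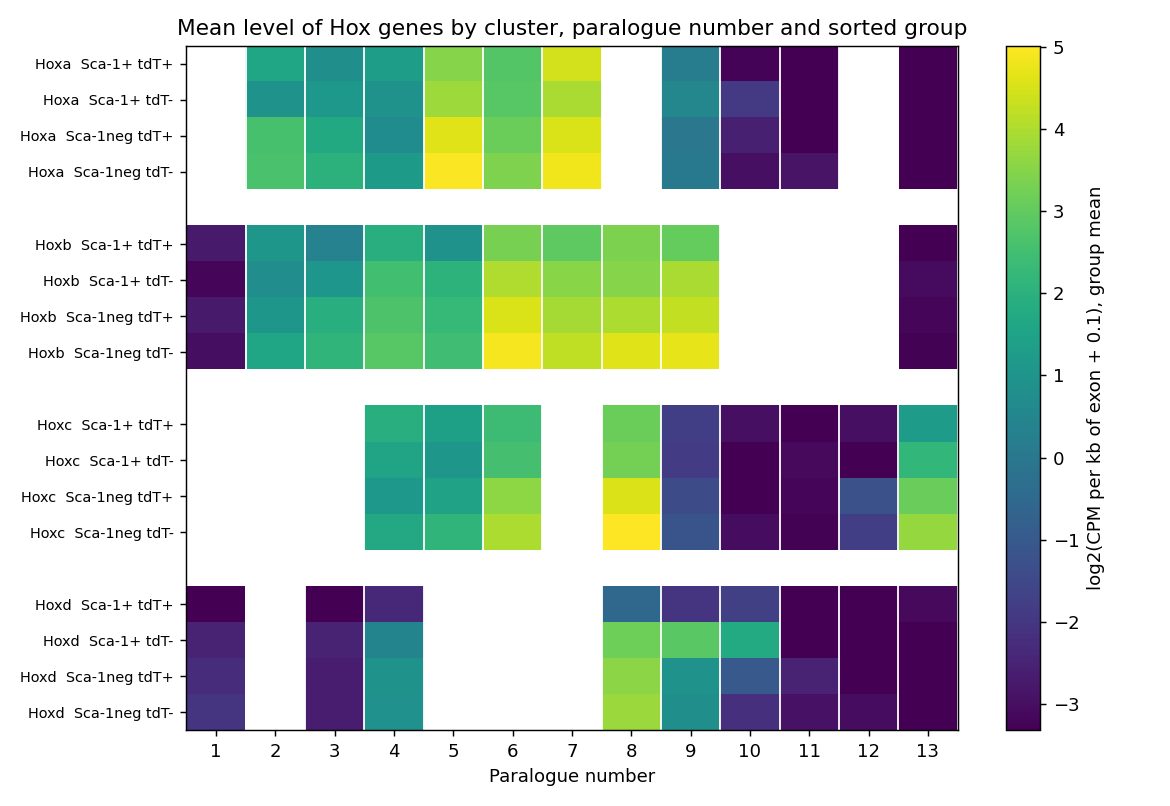
Group mean level of each Hox gene as log2 of CPM per kb of exon plus 0.1, by paralogue number (columns) and by cluster and sorted group (lines of the grid); white means that the cluster has no such gene or that it is not shown. The bright middle columns are paralogue numbers 4 to 8, Hoxc13 stands out at the right, and the HoxD line of Sca-1+ tdT+ cells is dark throughout.

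The HoxD cluster lies on chromosome 2 from 74668310 to 74765142 (GRCm38, the assembly behind mm10) and holds 9 Hox genes, all on the plus strand, 7 of them with at least 10 counts. Hoxd9 (74697727 to 74700208), Hoxd8 (74704615 to 74707933) and Hoxd4 (74711929 to 74729160) follow each other along it. The exons of Hoxd8 and Hoxd9 share no base with another gene. Only 47.7% of the exon bases of Hoxd4 are free of other genes, the rest being shared with Hoxd3, Gm28230 and the antisense gene Hoxd3os1. Hoxd3 and Gm28230 lie on the same strand as Hoxd4, so strand could not part reads on the bases shared with them. Hoxd3os1 lies on the opposite strand, and the library kit does not mark strand. Reads on shared bases thus cannot be assigned to one of these genes.

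The stretches from 250 bases before to 50 bases after the RefSeq start (GRCm38.p6, plus strand) are shown because all 3 genes fell in Sca-1+ tdT+ against Sca-1neg tdT+ libraries. They lie at chr2:74697513-74697812 for Hoxd9, chr2:74704365-74704664 for Hoxd8 and chr2:74721728-74722027 for Hoxd4, the last inside the annotated span of the gene. Capitals mark matches, on either strand, to 4 motifs.
Hoxd9: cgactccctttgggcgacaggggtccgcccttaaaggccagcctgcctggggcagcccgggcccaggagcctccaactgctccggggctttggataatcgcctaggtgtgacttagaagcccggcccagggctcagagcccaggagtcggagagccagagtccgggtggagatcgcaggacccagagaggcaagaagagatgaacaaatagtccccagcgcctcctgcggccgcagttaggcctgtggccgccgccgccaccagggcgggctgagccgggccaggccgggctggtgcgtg
Hoxd8: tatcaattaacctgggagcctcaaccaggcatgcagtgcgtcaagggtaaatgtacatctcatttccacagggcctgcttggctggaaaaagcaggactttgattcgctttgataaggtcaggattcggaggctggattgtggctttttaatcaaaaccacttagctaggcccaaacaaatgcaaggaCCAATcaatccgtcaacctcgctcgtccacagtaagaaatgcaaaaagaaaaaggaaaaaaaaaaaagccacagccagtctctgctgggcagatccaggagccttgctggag
Hoxd4: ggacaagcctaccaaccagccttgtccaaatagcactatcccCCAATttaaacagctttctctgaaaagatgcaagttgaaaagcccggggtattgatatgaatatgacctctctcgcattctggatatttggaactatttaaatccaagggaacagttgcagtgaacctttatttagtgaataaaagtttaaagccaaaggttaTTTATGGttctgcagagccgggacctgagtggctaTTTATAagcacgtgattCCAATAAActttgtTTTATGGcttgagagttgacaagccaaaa
The motifs searched were TGATTNAT (a site of Hox and Pbx proteins together), TTTATNG (a site of posterior Hox and Cdx proteins), TATAAA and CCAAT. They occur in 3.22%, 10.9%, 13.6% and 37.4% of the 32851 promoters of the same length. The Hoxd4 stretch held 3 TTTATNG, 1 TATAAA and 2 CCAAT matches, of which a CCAAT and a TTTATNG overlap. The Hoxd8 stretch held 1 CCAAT and the Hoxd9 stretch none of the 4. GC content was 68.3% for Hoxd9, 46.7% for Hoxd8 and 39.7% for Hoxd4, with 20, 6 and 4 CpG dinucleotides. The median over the 24 Hox promoters found, of 22 genes, was 57.7% GC and 14.5 CpG, against 52.7% and 7 over all promoters. None of the 4 motifs was thus in all 3 stretches, and their base composition spanned a wide range.

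Hoxd8, a trunk gene, was nearly absent from one group. It had 1.81, 2.21 and 0.929 CPM in Sca-1+ tdT+, 23.2 and 25.3 in Sca-1+ tdT-, 28.5, 34.2 and 34 in Sca-1neg tdT+, and 37.2, 28.4 and 44.9 CPM in Sca-1neg tdT- libraries. Every Sca-1+ tdT+ library lay more than 10 times below every other library. Within the Sca-1+ fraction Hoxd8 fell in tdT+ libraries, with a log2 fold change of -3.87 ± 0.33 (SE, adjusted p = 0.000296). Fewer cells that express a gene and less RNA of it per cell cannot be told apart in such bulk libraries, here and for every value below.

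Hoxd9, which patterns the lower trunk and limb, had another profile. It stood at 0.640, 0.0568 and 0.206 CPM in Sca-1+ tdT+, 13 and 17.7 in Sca-1+ tdT-, 2.72, 7.18 and 1.54 in Sca-1neg tdT+, and 3.04, 3.49 and 4.29 CPM in Sca-1neg tdT- libraries. It was thus lowest in Sca-1+ tdT+ and highest in Sca-1+ tdT- libraries, with no overlap of either with the other groups. It fell in tdT+ against tdT- libraries of the Sca-1+ fraction, by 5.57 on the log2 scale (SE 0.87, adjusted p = 0.0066). Hoxd9 had 24, 1 and 4 counts in the Sca-1+ tdT+ libraries, so the size of this fall is rough.

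Hoxd4, a gene of the neck region, followed Hoxd8 at a lower level. It had 0.480, 0 and 0.361 CPM in Sca-1+ tdT+, 3.32 and 4.10 in Sca-1+ tdT-, 4.40, 7.44 and 3.97 in Sca-1neg tdT+, and 6.2, 3.25 and 6.12 CPM in Sca-1neg tdT- libraries. The Sca-1+ tdT+ libraries again lay below all others. Against Sca-1+ tdT- the log2 fold change of -3.65 ± 0.88 did not pass (adjusted p = 0.0584; range over alternatives 1.2e-06 to 0.311). It passed under 5 of 21 alternatives (DESeq2, voom, no filter, without the libraries with liver transcripts and without Sca-1+ tdT+ replicate 2). Hoxd10, which patterns the lumbar spinal cord and was chosen after its values were seen, had 0.187, 0.909 and 0 CPM in Sca-1+ tdT+, 7.56 and 4.40 in Sca-1+ tdT-, 0, 2.2 and 0 in Sca-1neg tdT+, and 0.103, 0.238 and 0.293 CPM in Sca-1neg tdT- libraries. It was high only in the Sca-1+ tdT- libraries and, less so, in the library labelled replicate 2 of Sca-1neg tdT+, and passed no comparison in the edgeR fit of all libraries. For Sca-1 in tdT- libraries it passed under 4 of 21 alternatives, higher in Sca-1+ (DESeq2, voom, only the compared groups in the fit, and without the libraries with liver transcripts). The remaining HoxD genes with at least 10 counts, Hoxd1, Hoxd3 and Hoxd11, stayed under 1 CPM in every library.

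Summed over the cluster, HoxD transcripts came to 3.12, 3.29 and 1.5 CPM in Sca-1+ tdT+, 47.5 and 52.0 in Sca-1+ tdT-, 35.6, 52.4 and 40.5 in Sca-1neg tdT+, and 46.8, 36.9 and 55.8 CPM in Sca-1neg tdT- libraries. As a share of all Hox CPM this is 0.563% to 1.22% in Sca-1+ tdT+, 12.5% and 13.9% in Sca-1+ tdT-, 5.85% to 10.8% in Sca-1neg tdT+, and 6.37% to 6.90% in Sca-1neg tdT-. The other clusters kept between 16.1% and 45.0% of the Hox CPM in every library.

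**Figure D2:**
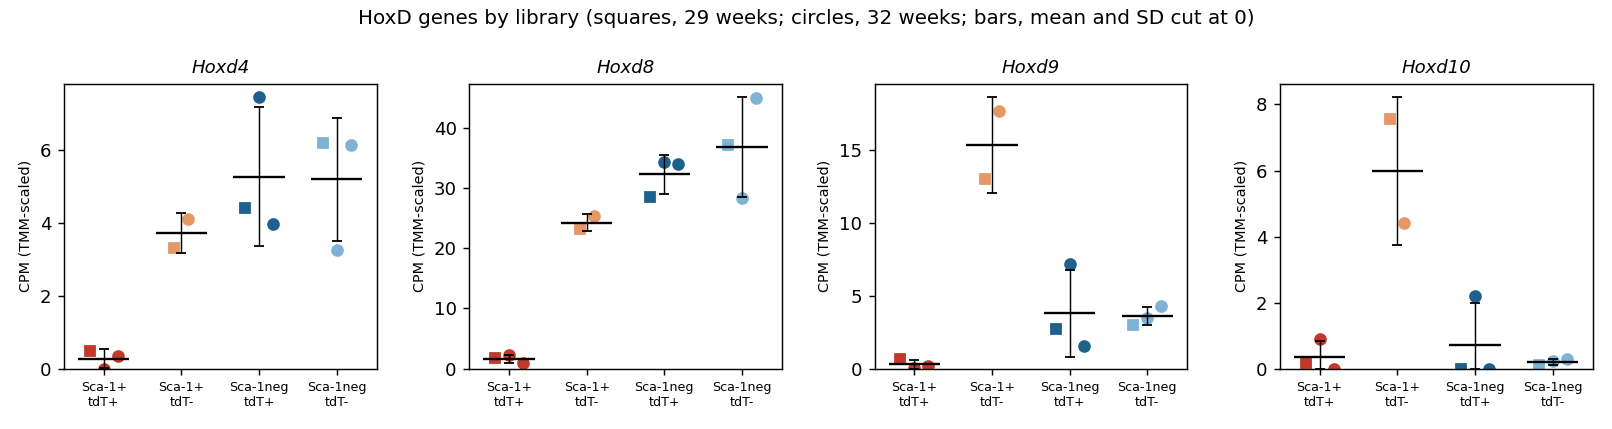
CPM (TMM-scaled) of Hoxd4, Hoxd8, Hoxd9 and Hoxd10 in each library; squares are mice of 29 weeks, circles of 32 weeks, horizontal lines group means, and whiskers the SD, not drawn below 0. In Hoxd4, Hoxd8 and Hoxd9 the 3 Sca-1+ tdT+ libraries lie at 0 to 2.21 CPM, under every other library of the same gene.

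The tdT comparison within Sca-1+ cells asks which Hox transcripts differ between cells with and without the tracer. A member is said to have passed at an adjusted p under 0.05 over all 20307 genes tested, and 28 Hox genes were among these. Not tested were the 7 with under 10 counts and Hoxb1, Hoxc12, Hoxd3 and Hoxd11. None was higher and 2 were lower, Hoxd8 and Hoxd9, where 2.74% of all tested genes passed in either direction (0.394% higher and 2.34% lower). As log2 ratios of means, Hoxd8 differed by -3.68 at 29 and -4.01 at 32 weeks, and Hoxd9 by -4.35 and -7.07. Neither gene overlapped between these groups, so the sign within age was fixed. Only replicate 1 of each group was of 29 weeks. At 32 weeks Hoxd9 had 1 and 4 counts in the Sca-1+ tdT+ libraries, so -7.07 lies near the floor and is rough. DESeq2 also called Hoxd4, Hoxb9 and Hoxb5 here, and edgeR with no low-count filter also called Hoxd4 and Hoxb9. The median log2 fold change of the 28 was -0.33, beside 0.04 over all genes. Of the 8 HoxB genes tested, 7 had a negative value (45.7% of all genes), with a median of -0.64. The groups did not overlap for 5 lower HoxB genes (17.2% of all genes). The groups did not overlap for 12 lower members (17.2% of all genes) and for 3 higher members (15.8% of all genes). The share of members higher without overlap was thus near that of all genes.

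In the Sca-1neg fraction none of the 28 passed the same comparison with edgeR, where 0.064% of all genes did (0.0542% higher and 0.00985% lower). At an unadjusted p under 0.05 there were 2, Hoxb8 (log2 fold change -0.60 ± 0.27) and Hoxc5 (-0.67 ± 0.27), and DESeq2 and voom called none either. Hoxd8 differed by -0.19 ± 0.28, Hoxd9 by 0.08 ± 0.69 and Hoxd4 by 0.02 ± 0.74 between tdT+ and tdT- libraries. Of the 28 log2 fold changes, 23 were negative, beside 52.6% of all genes, with a median of -0.29, beside -0.03. Hoxc5 and Hoxc13 were lower without overlap of the groups, as were 10.9% of all genes, and no member was higher without overlap, as 5.07% of all genes were. Without the library labelled replicate 2 of Sca-1neg tdT+, no member passed either.

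The difference between these tdT effects was tested directly, as Sca-1+ minus Sca-1neg. Of the 28 genes 1 passed, Hoxd8, with -3.68 ± 0.42 on the log2 scale (adjusted p = 0.00559), where 0.483% of all genes passed (0.0148% positive and 0.468% negative). Within age the Hoxd8 difference was -3.29 at 29 and -3.90 at 32 weeks. It was -3.63 without the library labelled replicate 2 of Sca-1neg tdT+. Hoxd9 (-5.65 ± 1.08, adjusted p = 0.0562) and Hoxd4 (-3.67 ± 1.14, adjusted p = 0.22) did not pass.

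Endothelial transcripts moved with part of the HoxD pattern. In the Sca-1+ tdT- libraries, where the 12 endothelial markers summed to 4263 and 4524 CPM, Hoxd9 and Hoxd10 were at their highest. The library labelled replicate 2 of Sca-1neg tdT+ had the next highest endothelial sum, 980 CPM, and the next highest Hoxd9 and Hoxd10. Hoxd8 did not follow this order: it had 34 CPM in Sca-1neg tdT+ replicate 3, where the endothelial sum was 11.5 CPM, and at most 2.21 CPM in Sca-1+ tdT+, where that sum was 59.2 to 153 CPM. All 12 endothelial log2 fold changes were negative between tdT+ and tdT- in Sca-1+ cells, with a median of -5.04, and 1 of the 12 passed. The defining endothelial markers Pecam1 and Cdh5 were above 0 in every library. Within the Sca-1+ fraction, Hoxd8 too was higher where the endothelial sum was higher, at 23.2 and 25.3 CPM in Sca-1+ tdT- libraries. The part of endothelial cells in the HoxD values, those of Hoxd8 included, was not tested.

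**Figure D3:**
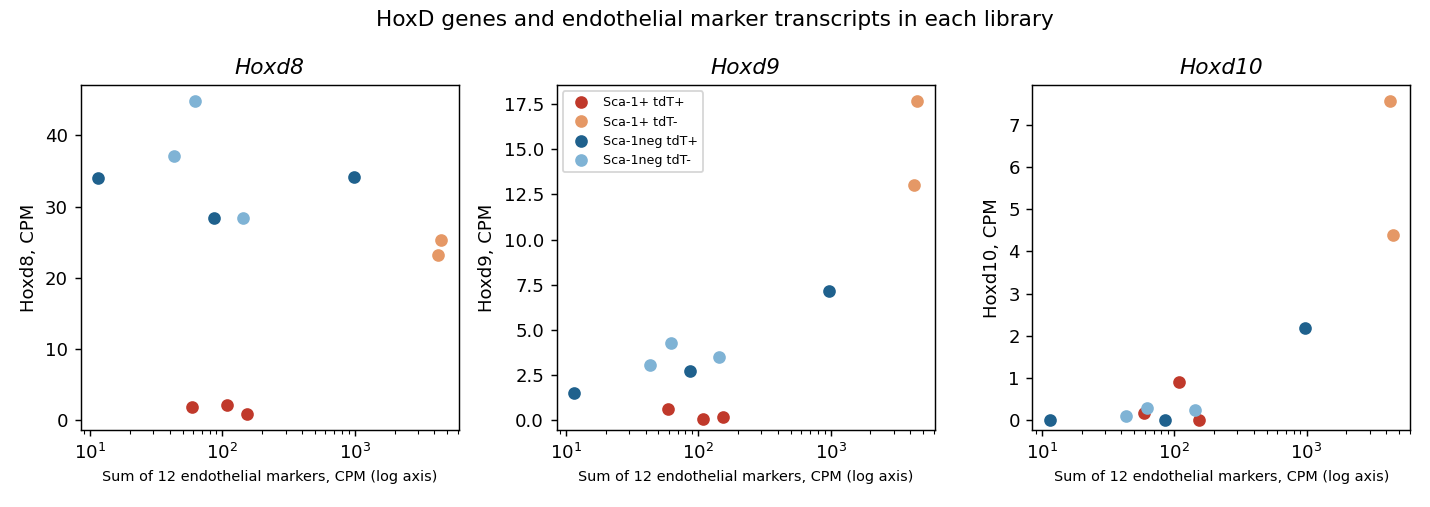
CPM of Hoxd8, Hoxd9 and Hoxd10 (vertical axes) against the summed CPM of 12 endothelial markers (horizontal log axis), 1 point per library, coloured by sorted group. Hoxd9 and Hoxd10 are highest in the 2 libraries at the far right, at 4263 and 4524 CPM, while Hoxd8 is high over the whole range except in the 3 Sca-1+ tdT+ libraries.

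The Sca-1 comparisons ask which Hox transcripts differ between the Sca-1+ and Sca-1neg fractions of the gate. They share libraries with the tdT comparisons and are not independent of them. In tdT+ libraries 12 of the 28 Hox genes were lower in Sca-1+ than in Sca-1neg and none was higher, where 12.7% of all genes passed in either direction, 5.94% higher and 6.73% lower. The 12 were Hoxa5, Hoxb3, Hoxb5, Hoxb6, Hoxb7, Hoxb9, Hoxc6, Hoxc8, Hoxc13, Hoxd4, Hoxd8 and Hoxd9. In tdT- libraries 5 were lower in Sca-1+ and none higher, where 5.74% of all genes passed, 3.68% higher and 2.06% lower. These were Hoxa5, Hoxa7, Hoxc6, Hoxc8 and Hoxc13. The members called in both were thus Hoxa5, Hoxc6, Hoxc8 and Hoxc13. With age as a factor, Hoxc6 and Hoxc8 alone were called in tdT- libraries, and the 12 in tdT+ libraries stayed.

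Among the genes called in tdT+ libraries the 3 of HoxD had the largest Sca-1 differences. Hoxd8 fell by 4.28 (SE 0.32, adjusted p = 6.02e-05), Hoxd4 by 4.16 (SE 0.86, adjusted p = 0.0104) and Hoxd9 by 3.56 (SE 0.78, adjusted p = 0.0131) on the log2 scale. Without the 3 libraries with liver transcripts the Hoxd9 value was -2.20 and did not pass (adjusted p = 0.108; range over all alternatives 4.35e-06 to 0.108). That setting leaves 1 Sca-1neg tdT+ library, whose spread is taken from the remaining groups. It was -2.73 (adjusted p = 0.0397) without the library labelled replicate 2 of Sca-1neg tdT+. It did not pass without Sca-1+ tdT+ replicate 3 (-3.35) or with only the compared groups in the fit (-3.62). In tdT- libraries Hoxd8 (-0.60 ± 0.31), Hoxd4 (-0.48 ± 0.84) and Hoxd9 (2.09 ± 0.76, adjusted p = 0.142) did not pass in the edgeR fit of all libraries. Hoxd9 passed there, higher in Sca-1+, with DESeq2, with voom and with only the compared groups in the fit, and Hoxd8 passed with voom.

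HoxA genes lie on chromosome 6 from 52155590 to 52260880, on the minus strand, and 9 of 11 had at least 10 counts. Hoxa5, needed for lung and thoracic development in mouse, fell in Sca-1+ under both tdT states. It had 25, 14.4 and 23.6 CPM in Sca-1+ tdT+ against 33.3, 40.4 and 61.7 CPM in Sca-1neg tdT+ libraries (log2 fold change -1.10 ± 0.26, adjusted p = 0.0201). It had 24.9 and 26.8 CPM in Sca-1+ tdT- against 60.6, 49.5 and 66.9 CPM in Sca-1neg tdT- libraries (-1.19 ± 0.30, adjusted p = 0.0435). Hoxa5 did not overlap between Sca-1+ and Sca-1neg libraries in either case.

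Hoxa7, another trunk gene and the family member with the highest level per kb, had 73.5, 59.6 and 55.9 CPM in Sca-1+ tdT+, 45.5 and 42.1 in Sca-1+ tdT-, 50.6, 72.3 and 77.8 in Sca-1neg tdT+, and 79.7, 67.8 and 98.1 CPM in Sca-1neg tdT- libraries. Sca-1+ tdT- was the low group, below every other library. Hoxa7 fell in Sca-1+ against Sca-1neg in tdT- libraries (-0.90 ± 0.22, adjusted p = 0.0406). In tdT+ libraries the difference was -0.09 ± 0.20 and did not pass. Of its exon bases 79.6% are free of other genes, and the rest lie opposite Hoxaas3.

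Hoxa6, a trunk gene too, had 6.71, 5.79 and 5.11 CPM in Sca-1+ tdT+, 7.18 and 5.36 in Sca-1+ tdT-, 4.44, 7.71 and 10.9 in Sca-1neg tdT+, and 10.2, 6.79 and 10.3 CPM in Sca-1neg tdT- libraries. The groups overlapped in part, and Hoxa6 passed no comparison under any alternative. Among other tested HoxA genes, Hoxa2, Hoxa3, Hoxa4 and Hoxa9 had at least 1.59 CPM in every library and passed no comparison in the edgeR fit of all libraries. For Sca-1, DESeq2 and voom called Hoxa2 in tdT- libraries, voom called Hoxa3 in tdT- and DESeq2 called it in tdT+ libraries. Hoxa10 was at most 0.981 CPM.

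HoxB genes lie on chromosome 11 from 96194316 to 96368256, on the plus strand, and 9 of 10 had at least 10 counts. All 8 tested had a negative log2 fold change in Sca-1+ against Sca-1neg under both tdT states. Of all genes 53.4% were negative in tdT+ and 58.3% in tdT- libraries. In tdT+ libraries 5 of the 8 HoxB genes passed. Hoxb6 had 23.5, 15.7 and 19 CPM in Sca-1+ tdT+ against 33, 39.8 and 62.5 CPM in Sca-1neg tdT+ libraries (-1.22 ± 0.25, adjusted p = 0.00956). Hoxb9 had 25.1, 19.8 and 17.4 CPM in Sca-1+ tdT+ against 35.1, 41.8 and 67.6 CPM in Sca-1neg tdT+ libraries (-1.21 ± 0.27, adjusted p = 0.0133). The lowest Sca-1neg tdT+ library lay above the highest Sca-1+ tdT+ library for both genes, which help to set thoracic vertebral identity in mouse.

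The other 3 HoxB genes that passed had lower levels per kb. Hoxb3, which acts in the hindbrain, had 5.14, 5.91 and 4.03 CPM in Sca-1+ tdT+ against 11.8, 10.7 and 23.7 CPM in Sca-1neg tdT+ libraries (log2 fold change -1.61 ± 0.36). Only 47.1% of its exon bases are free of other genes, since Hoxb3os lies opposite. Hoxb5, a gene of the vagal neural crest, had 7.91, 2.95 and 4.70 CPM in Sca-1+ tdT+ against 13.9, 10.6 and 14.4 CPM in Sca-1neg tdT+ libraries (-1.31 ± 0.35). Hoxb7, a trunk gene, had 12, 14.3 and 9.29 CPM in Sca-1+ tdT+ against 18.4, 21.2 and 28.1 CPM in Sca-1neg tdT+ libraries (-0.93 ± 0.24). None of these 3 overlapped between the groups (15% of all genes were lower without overlap). Their adjusted p were 0.0152, 0.0336 and 0.0314.

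In tdT- libraries no HoxB gene passed the Sca-1 comparison in the edgeR fit of all libraries, while DESeq2 called Hoxb6 and Hoxb8, and voom called these with Hoxb2, Hoxb3, Hoxb7 and Hoxb9. Hoxb6 had 28.5 and 34.3 CPM in Sca-1+ tdT- against 62.7, 48.4 and 63.4 CPM in Sca-1neg tdT- libraries. Hoxb9 had 34.4 and 45.8 CPM in Sca-1+ tdT- against 66.4, 52.9 and 80.6 CPM in Sca-1neg tdT- libraries. Both were lower in Sca-1+ tdT- without overlap. Hoxb3 had 5.95 and 10.8 CPM in Sca-1+ tdT- against 18.8, 14.9 and 20.9 CPM in Sca-1neg tdT- libraries. Hoxb7 had 15.7 and 19.4 CPM in Sca-1+ tdT- against 25.4, 24.4 and 34.8 CPM in Sca-1neg tdT- libraries. These 4 did not overlap, whereas Hoxb5 did, at 9.14 and 13.6 CPM in Sca-1+ tdT- against 17.5, 13.5 and 14.5 CPM in Sca-1neg tdT- libraries. Of all genes 26.4% were lower without overlap in this comparison. Hoxb8, a gene of the trunk and of microglia in mouse, had 30.9, 22.6 and 26.5 CPM in Sca-1+ tdT+, 20.6 and 38.5 in Sca-1+ tdT-, 44.0, 29.6 and 51.6 in Sca-1neg tdT+, and 71.7, 49.4 and 69.0 CPM in Sca-1neg tdT- libraries. It passed no comparison in the edgeR fit of all libraries (adjusted p = 0.0673 for Sca-1 in tdT- libraries). Hoxb2, a hindbrain gene, and Hoxb4, known for hematopoietic stem cells, ran over libraries from 4.71 to 11.4 CPM and from 7.69 to 23.1 CPM, and passed no comparison in that fit. DESeq2 called Hoxb4 for Sca-1 in tdT+ libraries. Hoxb1 had 24 counts in all.

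HoxC genes lie on chromosome 15 from 102921103 to 103036852, on the plus strand, and 7 of 9 had at least 10 counts. Hoxc6, Hoxc8 and Hoxc13 fell in Sca-1+ under both tdT states. Hoxc13 had 5.28, 7.33 and 4.23 CPM in Sca-1+ tdT+ against 22.8, 13.4 and 26.9 CPM in Sca-1neg tdT+ libraries (-1.91 ± 0.33, adjusted p = 0.00384). It had 7.94 and 14 CPM in Sca-1+ tdT- against 34.8, 27.9 and 32.7 CPM in Sca-1neg tdT- libraries (-1.53 ± 0.37, adjusted p = 0.0364). This hair gene did not overlap between the fractions within either tdT state.

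Hoxc8, which shapes the thoracic skeleton in mouse, had 24, 29.7 and 20.4 CPM in Sca-1+ tdT+ against 60.9, 44.7 and 97.6 CPM in Sca-1neg tdT+ libraries (-1.46 ± 0.31, adjusted p = 0.0128). It had 20.2 and 34.3 CPM in Sca-1+ tdT- against 92.5, 69.0 and 112 CPM in Sca-1neg tdT- libraries (-1.74 ± 0.37, adjusted p = 0.0215). Every Sca-1+ library was below every Sca-1neg library. Hoxc6, also a thoracic gene, had 12.7, 12.1 and 12.4 CPM in Sca-1+ tdT+ against 23.5, 22.0 and 41.4 CPM in Sca-1neg tdT+ libraries (-1.23 ± 0.27, adjusted p = 0.0126). It had 11.9 and 15.7 CPM in Sca-1+ tdT- against 43.6, 29.1 and 41.7 CPM in Sca-1neg tdT- libraries (-1.47 ± 0.31, adjusted p = 0.0204). Here too the fractions did not overlap.

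Hoxc4 and Hoxc5 were chosen after their values were seen. Hoxc4 did not share this direction in tdT+ libraries, and Hoxc5 hardly differed there. Hoxc4 had 11.6, 9.65 and 7.43 CPM in Sca-1+ tdT+ against 7.12, 6.05 and 2.87 CPM in Sca-1neg tdT+ libraries, the one member higher without overlap in that comparison (log2 fold change 0.84 ± 0.37, adjusted p = 0.156, not passed except without the libraries with liver transcripts; 15.4% of all genes were higher without overlap). Hoxc5 averaged 7.96 ± 1.26 CPM in Sca-1+ tdT+, 6.26 ± 0.03 in Sca-1+ tdT-, 8.25 ± 2.33 in Sca-1neg tdT+ and 13.2 ± 0.95 CPM in Sca-1neg tdT- libraries (SD, n = 3, 2, 3 and 3). In the edgeR fit of all libraries the Sca-1 log2 fold change of Hoxc5 was -0.05 ± 0.27 in tdT+ libraries. It was -1.07 ± 0.31 in tdT- libraries (adjusted p = 0.0731). DESeq2, voom, only the compared groups in the fit, and leaving out Sca-1neg tdT+ replicate 3 called Hoxc5 in tdT- libraries. Hoxc9 and Hoxc12 were at most 1.16 CPM in any library.

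**Figure D4:**
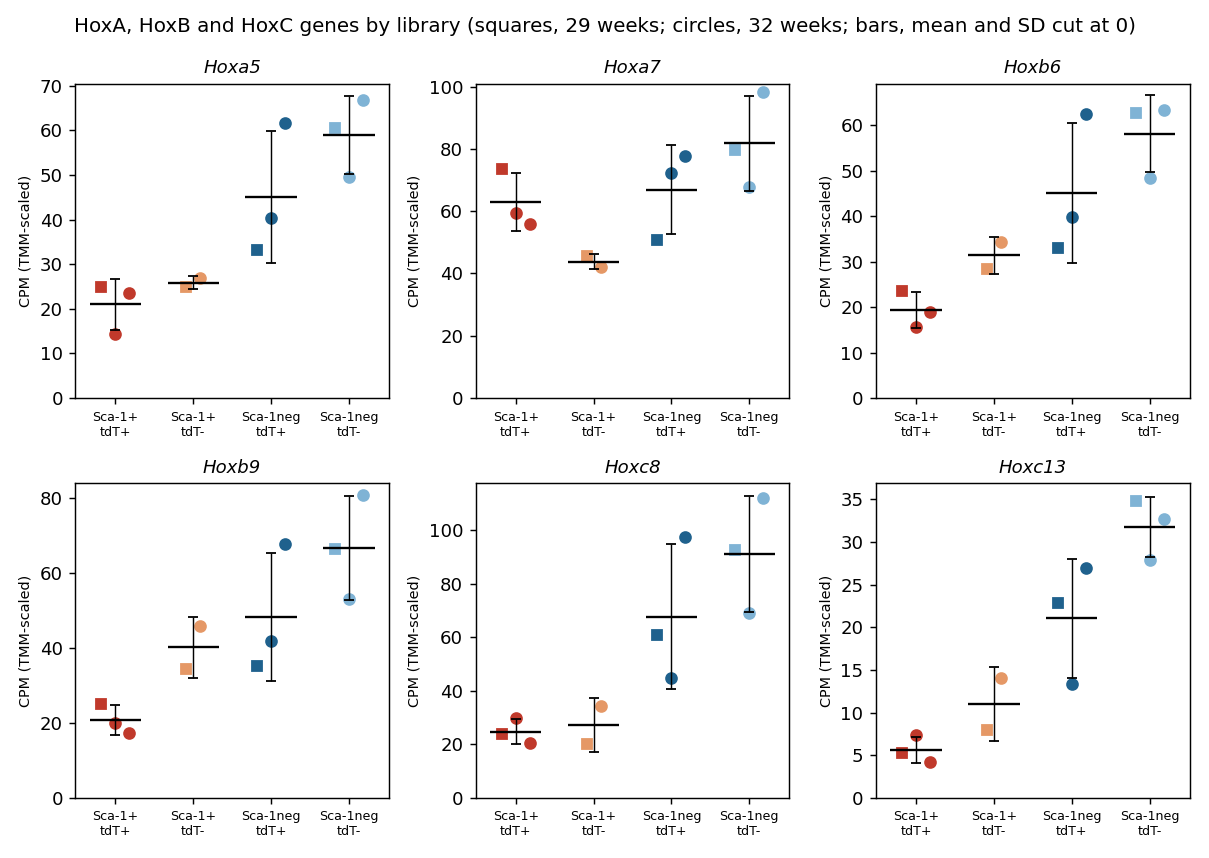
CPM (TMM-scaled) of 6 HoxA, HoxB and HoxC genes in each library, drawn as for the HoxD genes: squares 29 weeks, circles 32 weeks, lines group means and whiskers the SD. Hoxc8 lies at 20.2 to 34.3 CPM in Sca-1+ and at 44.7 to 112 CPM in Sca-1neg libraries, and Hoxa7 is low in Sca-1+ tdT- libraries alone.

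Over the 28 tested genes the median Sca-1 log2 fold change was -1.0 in tdT+ libraries, beside -0.07 over all genes, and -0.78 in tdT- libraries, beside -0.13. Negative values numbered 25 of 28 in tdT+ libraries (53.4% of all genes) and 23 of 28 in tdT- libraries (58.3% of all genes). Members lower without overlap of the groups numbered 15 in tdT+ libraries (15% of all genes) and 16 in tdT- libraries (26.4% of all genes). Higher without overlap in tdT- libraries were 4 members, Hoxa9, Hoxa10, Hoxd9 and Hoxd10 (19.9% of all genes). All 17 Sca-1 calls were lower without overlap of the groups, so their sign within each age was fixed and is no separate check. Only replicate 1 of each group was of 29 weeks. Outside HoxD the 9 called values in tdT+ libraries ran from -1.91 to -0.93, and within age from -2.11 to -0.41 at 29 weeks and from -1.80 to -1.06 at 32 weeks. The 5 called in tdT- libraries ran from -2.20 to -0.81 at 29 weeks and from -1.40 to -0.98 at 32 weeks.

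Leaving out single libraries changed these counts. Without Sca-1+ tdT+ replicate 3, 6 of the 12 calls were left in tdT+ libraries, and without the library labelled replicate 2 of Sca-1neg tdT+, 11 genes were called. In tdT- libraries no gene was called without Sca-1neg tdT- replicate 1 or 3 or without Sca-1+ tdT- replicate 1, and 1 was called without Sca-1+ tdT- replicate 2. When the 3 libraries holding liver transcripts were left out, Sca-1neg tdT+ had 1 library, whose spread is taken from the remaining groups, and values that involve it have no replicate check. Then 11 Hox genes were called in tdT+ libraries, 10 of them among the 12, and 8 in tdT- libraries, all 5 among them. In that setting 4 were called for tdT in the Sca-1+ fraction, and the Hoxd8 difference of tdT effects was -3.66.

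**Figure D5:**
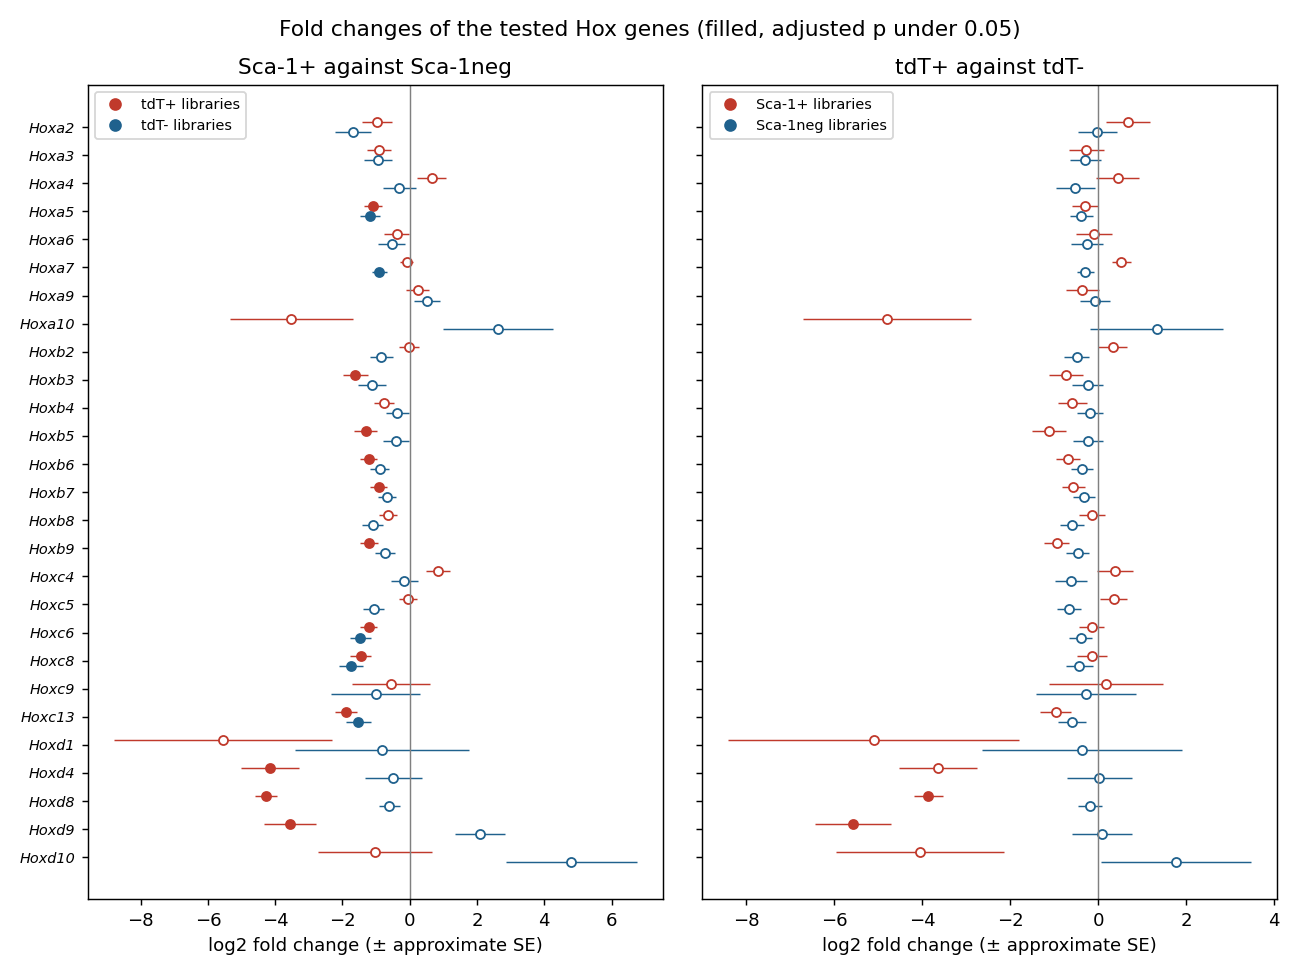
Log2 fold changes (points) with approximate SE (bars) of 27 of the 28 tested Hox genes, for Sca-1+ against Sca-1neg (left; red tdT+, blue tdT- libraries) and tdT+ against tdT- (right; red Sca-1+, blue Sca-1neg libraries); filled points passed an adjusted p of 0.05. At left 12 red and 5 blue points are filled, all below 0; at right 2 red points are filled, Hoxd8 at -3.87 and Hoxd9 at -5.57.

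Other cell markers moved with the Sca-1 comparisons, where 12.7% of all genes passed in tdT+ and 5.74% in tdT- libraries. The 8 bulge markers (hair follicle stem cell genes such as Krt15 and Lhx2) summed to 4412 to 5767 CPM in Sca-1+ tdT+, 5492 and 7177 in Sca-1+ tdT-, 11279 to 17929 CPM in Sca-1neg tdT+ and 15408 to 21392 CPM in Sca-1neg tdT- libraries. All 8 fell in Sca-1+ against Sca-1neg in tdT+ libraries and 3 of 8 did in tdT-. Most of the bulge sum was Krt15 and Postn, and Krt15 averaged 4106 CPM in Sca-1+ tdT+ and 3584 in Sca-1+ tdT- libraries. Between these 2 groups 7 of the 8 log2 fold changes were negative, with a median of -1.80. Tcf7l1 averaged 3.28 against 38.2 CPM and Cd200 29.6 against 132 CPM. In Sca-1neg tdT+ and Sca-1neg tdT- libraries Tcf7l1 averaged 37.2 and 56.4 CPM, and Cd200 173 and 142 CPM. The 4 keratinocyte markers summed to 24977 to 32169 CPM in Sca-1+ tdT+, 17715 and 20936 in Sca-1+ tdT-, 12415 to 15499 in Sca-1neg tdT+ and 17050 to 18593 CPM in Sca-1neg tdT- libraries. Of these 4, 3 rose in Sca-1+ against Sca-1neg in tdT+ libraries, with a median log2 fold change of 0.95, and 1 rose in tdT-. The 6 markers of differentiating epidermis summed to 7088 to 9870 CPM in Sca-1+ tdT+, 3019 and 6957 in Sca-1+ tdT-, 1543 to 4059 in Sca-1neg tdT+ and 488 to 1698 CPM in Sca-1neg tdT- libraries. The 8 T cell markers summed to 403 to 1047 CPM in Sca-1+ tdT+, 147 and 157 in Sca-1+ tdT-, 37.7 to 78.6 CPM in Sca-1neg tdT+ and 24.3 to 29.7 CPM in Sca-1neg tdT- libraries. All 8 T cell markers rose in Sca-1+ against Sca-1neg in tdT+ libraries and 7 of 8 did in tdT-. In the tdT comparison of Sca-1+ cells 3 of the 8 T cell markers rose and 4 of the 8 bulge markers fell. The 10 fibroblast markers summed to 85.0 to 415 CPM in Sca-1+ tdT+, 561 and 904 in Sca-1+ tdT-, 390 to 534 in Sca-1neg tdT+ and 541 to 777 CPM in Sca-1neg tdT- libraries. The 6 smooth muscle markers stood at 51.3 to 70.2 CPM in Sca-1+ tdT+, 107 and 218 in Sca-1+ tdT-, 251 to 395 in Sca-1neg tdT+ and 406 to 447 CPM in Sca-1neg tdT- libraries. Most of that sum was Cspg4, the 1 of the 6 that fell with Sca-1 in either tdT state, while Acta2 and Tagln had higher means in Sca-1+ tdT- than in Sca-1neg tdT- libraries. The 7 melanocyte markers stood at 17.2 to 28.4 CPM in Sca-1+ tdT+, 42.1 and 62.6 in Sca-1+ tdT-, 102 to 131 in Sca-1neg tdT+ and 110 to 163 CPM in Sca-1neg tdT- libraries. Sums of bulge, smooth muscle and melanocyte markers were thus higher in Sca-1neg than in Sca-1+ libraries, as most Hox genes were. The part of these cell types in the Hox differences was not tested.

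Hox proteins bind DNA with TALE cofactors, and of 9 tested none passed either tdT comparison. In Sca-1+ against Sca-1neg, 1 rose and 1 fell in tdT- (5.74% of all genes passed) and 1 rose and 2 fell in tdT+ libraries (12.7% of all genes). Pknox2 had 2.82, 2.10 and 2.58 CPM in Sca-1+ tdT+ against 8.75, 15.6 and 19.5 CPM in Sca-1neg tdT+ libraries (log2 fold change -2.54 ± 0.37, adjusted p = 0.00164), and fell in tdT- libraries too (-2.39 ± 0.43). Pbx3 fell in tdT+ libraries (-1.66 ± 0.35), Pbx4 rose there (2.19 ± 0.44), and Meis3 rose in tdT- libraries (2.28 ± 0.52).

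Polycomb and Trithorax proteins keep Hox genes silent or active. Of 22 tested, none passed a tdT comparison. With Sca-1, 1 rose and 1 fell in tdT- libraries (5.74% of all genes passed). In tdT+ libraries 3 rose and 1 fell (12.7% of all genes). Cbx8, of Polycomb complex 1, had 6.61, 6.70 and 7.02 CPM in Sca-1+ tdT+ against 19.3, 18.7 and 26.7 CPM in Sca-1neg tdT+ libraries (-1.67 ± 0.21, adjusted p = 0.00068), and fell by 1.34 in tdT- libraries. The Polycomb complex 2 genes Jarid2 (0.78 ± 0.12), Eed (0.78 ± 0.14) and Ezh2 (0.55 ± 0.16) rose in tdT+ libraries, and Jarid2 rose in tdT- libraries as well (0.82 ± 0.13).

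Retinoic acid induces anterior Hox genes in the embryo. Of 18 genes of its pathway 1 fell with tdT in Sca-1+ cells (2.74% of all genes passed). With Sca-1 in tdT+ libraries 2 fell (12.7% of all genes). Crabp1, a cellular retinoic acid binding protein, had 0.266, 0.227 and 0.0516 CPM in Sca-1+ tdT+, 3.45 and 1.3 in Sca-1+ tdT-, with 5.76, 3.59 and 5.79 CPM in Sca-1neg tdT+ libraries. It fell by 3.64 (SE 0.65, adjusted p = 0.0131) against Sca-1+ tdT- on the log2 scale, and fell by 4.72 (SE 0.64, adjusted p = 0.00112) against Sca-1neg tdT+. Dhrs3, which reduces retinaldehyde, fell in the second of these (-0.87 ± 0.24).

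Of 11 ParaHox and related homeobox genes 2 had enough counts to test, Meox1 and Meox2. Meox1 fell with tdT in Sca-1+ cells, where 2.74% of all genes passed. It had 0.133, 0.284 and 0.619 CPM in Sca-1+ tdT+ against 24.3 and 28.2 CPM in Sca-1+ tdT- libraries. Like Hoxd9, it was highest where the endothelial sum was highest. Of 11 genes that flank the clusters 9 were tested and 1 passed, Skap1, an adaptor of T cells, which rose with Sca-1 in tdT+ libraries (4.45 ± 0.73, adjusted p = 0.00299). In that comparison 12.7% of all genes passed.

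The 4 clusters hold 46 other annotated genes, mostly antisense or noncoding, of which 16 were tested. In Sca-1+ against Sca-1neg in tdT+ libraries 2 of them fell, both in HoxD. Of all genes 12.7% passed there in either direction (6.73% lower), so the count of 2 is near the share of all genes. No other comparison called one with edgeR. Hoxd3os1 had 0.213, 0 and 0.671 CPM in Sca-1+ tdT+ against 3.94, 3.27 and 4.02 CPM in Sca-1neg tdT+ libraries (-3.65 ± 0.94, adjusted p = 0.0283). It lies opposite 347 exon bases of Hoxd4 and of Hoxd3, and the kit does not mark strand, so it is not fully separate from them. The HoxD long noncoding RNA Haglr fell as well (adjusted p = 0.0213, edgeR). It had no count in the 3 Sca-1+ tdT+ libraries, against 0.136, 0.750 and 0.827 CPM in Sca-1neg tdT+ libraries. The Sca-1neg tdT+ mean, 0.571 CPM, was 14.1 times a floor of 0.0406 CPM (3 counts over the Sca-1+ tdT+ group, counting error only). That ratio leaves out the spread of the Sca-1neg tdT+ libraries and is no lower bound. Haglr had 0.443 and 0.461 CPM in Sca-1+ tdT- libraries.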

How the data were processed

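The authors deposited raw counts, 1 table per library, for Ensembl genes and a tdT sequence. Per the submitters' processing notes the tools included STAR, featureCounts, DESeq2 1.18.1, FastQC and bcl2fastq 2.20.0.422, with mm10. The annotation release, strand setting and treatment of multi-mapping reads were not stated there or in the labels. Symbols and exon lengths came from GENCODE M21, with 86 genes left without a symbol.

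Counts were fitted with edgeR 4.0.16 in R 4.3.3: filterByExpr by group (20307 genes), TMM scaling, glmQLFit with robust estimation and glmQLFTest, 4 group means over all 11 libraries, 7 residual degrees of freedom, and Benjamini-Hochberg adjustment over all genes tested. CPM are TMM-scaled, except tracer CPM. Each SE was obtained as the size of the log2 fold change over √F, and is rough for genes near 0. The code was tested on simulated data. Groups came from the labels' sorted population. Values per library are given for Hox genes past the threshold, Hoxd9 and the 3 with the highest level per kb in each cluster. Other genes given with values, outside the cell markers, are at most 4 per list, those that passed with the lowest p. Cell markers named by themselves were not all chosen by that rule. One member is counted in the totals and not reported here by itself. Members and lists were chosen with earlier results of these data known. Alternatives were DESeq2 1.42.0, voom of limma 3.58.1, other scalings and filters, age, replicate number as a block, fewer groups and libraries left out.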

Additional observations from a re-analysis of the deposited data

Results flagged for a closer look

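The tdT effect on Hoxd8 differed between the Sca-1 fractions, by -3.68 on the log2 scale (Sca-1+ minus Sca-1neg; edgeR quasi-likelihood test of the difference, adjusted p = 0.00559). It was lower in 3 of 3 tdT+ libraries than in both tdT- libraries of the Sca-1+ fraction, and overlapped between tdT+ and tdT- in the Sca-1neg fraction. For Hoxc5, tdT+ was above tdT- in every library of the Sca-1+ fraction and below it in every library of the Sca-1neg fraction, and that difference, 1.02 ± 0.41, did not pass (adjusted p = 0.349).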

How the results depend on the processing

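Among the calls on HoxD genes, those of Hoxd8 (3 comparisons), of Hoxd9 with tdT in Sca-1+ and of Hoxd4 with Sca-1 in tdT+ passed under every alternative run, as did Hoxb6, Hoxc6 and Hoxc13 with Sca-1 in tdT+ libraries. No call changed sign. The calls with Sca-1 in tdT- libraries were lost under 11 of 21 alternatives for Hoxa5, 9 for Hoxa7, 8 for Hoxc13, 4 for Hoxc6 and 3 for Hoxc8. Hoxb5 and Hoxb7 in tdT+ libraries were lost under 10 and 8.

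In counts of Hox genes, tdT within Sca-1+ gave 5 with DESeq2, 4 with no filter and 4 without the 3 libraries with liver transcripts (then 1 Sca-1neg tdT+ library, with no replicate check). Sca-1 in tdT- gave 11 with DESeq2 (Hoxd9 at 2.17 and Hoxd10 at 4.91 among them, both higher), 17 with voom, 9 with only the groups compared, 8 without the liver libraries, 3 with library size alone, 2 with the replicate block and 2 with age (Hoxc6 and Hoxc8 in both). The difference of the tdT effects gave 3 with DESeq2 and 2 each with DESeq2 size factors, no filter and voom, Hoxd9 being the second. Leaving out 1 library gave 0 to 0 for tdT in Sca-1neg, 2 to 3 for tdT in Sca-1+, 0 to 7 for Sca-1 in tdT-, 6 to 12 for Sca-1 in tdT+ and 1 to 2 for the difference. The replicate block changed no other count of Hox calls. Over 15 pairs of libraries with the same number the correlation of deviations ran from -0.415 to 0.589, with a median of 0.083. Over 30 pairs with different numbers it ran from -0.602 to 0.513, with a median of -0.023. Both sets include the libraries with liver transcripts. These overlapping ranges cannot decide whether libraries of one number share mice. The labels do not say so either, and the main fit took no pairs.

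In counts of all genes, tdT in Sca-1neg (13) gave 436 with DESeq2, 344 with voom, 81 with no filter, 38 without the liver libraries, 8 with age, 0 with only the groups compared (1441 at an unadjusted p under 0.05) and 0 to 14 with 1 library left out. Its split of 11 higher and 2 lower was 11 and 0 with DESeq2 size factors. The count for tdT in Sca-1+ (556) was 1512 with DESeq2, 1172 with voom, 957 with only the groups compared, 1286 without the liver libraries and 145 to 791 with 1 left out. The count for Sca-1 in tdT- (1166) was 2957, 4232, 2003 and 2073 under the same settings and 116 to 1665. Sca-1 in tdT+ (2572) gave 4808 with DESeq2, 1584 with only the groups compared and 1591 to 3040. The difference (98) gave 890 with DESeq2, 156 with its size factors, 234 with no filter, 680 with voom, 220 without the liver libraries and 26 to 347.

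The difference of the tdT effects for Hoxd10 was -5.82 and reversed to 1.41 without the liver libraries and to 1.63 without the library labelled replicate 2 of Sca-1neg tdT+ (range with 1 library left out -7.68 to 1.63), which alone of its group held Hoxd10 counts. In both settings the Sca-1neg tdT+ group is at 0 counts for Hoxd10, so these 2 values depend on the prior count and are no estimate of a fold. The other causes were not tested. The 2 Sca-1+ tdT- libraries and the low counts of Hoxd1, Hoxd10 and Hoxa10 limit their precision. With only the groups compared, the difference of the tdT effects could not be fitted. For that difference, DESeq2 size factors moved the median of all genes to -0.07, against 0.05 with TMM.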
